A study of Mus musculus with 4 samples.

Results

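Acetylation of histone H3 at lysine 27 (H3K27ac) was mapped at 9 transcription factor genes with known roles in blood and lymphatic vessels, in liver sinusoidal endothelial cells (LSECs), the fenestrated endothelium that lines the liver sinusoids. The genes were *Mef2a*, *Mef2c* and *Mef2d* of the MEF2 family, *Meis1* and *Meis2* of the MEIS family, the COUP-TF genes *Nr2f1* and *Nr2f2*, *Tcf4* and *Prox1*. They were taken by name, 9 of 21883 protein-coding genes of the mouse annotation (GRCm38, the build that genome browsers call mm10), and every H3K27ac peak that touched the gene body or the 10 kb on either side of it was assigned to the gene. A peak within 1 kb of an annotated gene end was counted as a gene-end peak, and all others as distal.

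The study isolated LSECs from mice and performed ChIP-Seq with 1 H3K27ac antibody, to find putative enhancers of the type IV collagen genes. The labels hold 1 condition with 2 H3K27ac libraries, replicates 2 and 3, and an input library for each number. The inputs were not analysed here. LSECs were purified with anti-CD146 microbeads from *dCas9-KRAB Cdh5* CreERT2, *Col4a1* fl/wt *Cdh5* CreERT2 or *Col4a1* fl/wt mice according to the methods, and the labels do not say which of these strains, which treatment or how many animals gave each library. Cre in the first and second of these lines is driven by *Cdh5*, an endothelial gene. The general culture method kept purified cells on collagen-coated dishes for 4 hours before harvest. The ChIP method names isolation and cross-linking but no such step, so whether these cells were plated is not stated. With 1 condition there was no contrast to test, so counts and levels are given for each library and set beside those of all protein-coding genes. Nothing in the labels says that the replicates came from separate animals, and the spread between them may be technical.

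The MEF2 proteins are MADS-box factors that class IIa histone deacetylases hold in a repressed state and that the kinase ERK5 activates, and in endothelium they drive the flow-responsive genes *Klf2* and *Klf4*. MEIS proteins are TALE homeodomain factors that bind DNA with PBX partners, COUP-TFII (encoded by *Nr2f2*) sets venous identity, and TCF4, also named E2-2, is a basic helix-loop-helix E protein that ID proteins inhibit. PROX1 specifies lymphatic endothelium and is also made by hepatocytes. H3K27ac marks active promoters and enhancers, and a peak is a stretch where the antibody signal exceeds its local background; the height of a peak is given here as fold enrichment, the ratio of signal to background.

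The 2 libraries differed in how much they called. Replicate 2 held 26975 peaks and replicate 3 held 64498. Of the replicate 2 peaks, 99.2% overlapped a replicate 3 peak by at least 1 bp, whereas 37.7% of the replicate 3 peaks overlapped one of replicate 2. The median fold enrichment was 9.76 and 8.89 in replicates 2 and 3. Replicate 3 peaks that replicate 2 shared had a median of 27.03, against 6.20 for those it did not share. Read depth is unknown, because the peak lists give no read counts. The label was checked against cell type markers at gene ends. All 12 LSEC markers had a replicate 3 gene-end peak and 8 had a peak of both libraries, with no replicate 2 gene-end peak at *Stab2*, *Tek*, *Clec4g* and *Mrc1*. Over all protein-coding genes these shares were 53.9% in replicate 3 and 43.4% in both libraries. Of 37 markers of hepatocytes, stellate cells, Kupffer cells, cholangiocytes and lymphocytes, 3 had a gene-end peak of both libraries, namely *Trf*, *Ass1* and *Cd79a*. The shared gene-end peaks of *Cd79a* and of the LSEC marker *Fcgr2b* were not within 1 kb of a RefSeq start. In replicate 3, gene-end peaks were at 4 of 10 hepatocyte and 2 of 9 stellate cell markers. They were at 0 of 7 Kupffer cell, 1 of 5 cholangiocyte and 2 of 6 lymphocyte markers. The peak at *Trf* reached 78.8 in replicate 3, above the 60.3 at *Kdr*, the highest LSEC marker. The part of other cells in the results below was not tested.

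The sequences before the start sites show which bases there lay inside peaks of both libraries. RefSeq (GRCm38.p6) lists 12 start sites for 8 of the 9 genes, and *Tcf4* has no entry. The 250 bases before 6 of these starts are printed 5′ to 3′ on the strand of the gene, with the bases inside a peak of both libraries in capitals. The windows of *Mef2a* (chr7:67372859-67373108, minus strand) and *Mef2d* (chr3:88142122-88142371, plus strand) lay wholly inside such peaks. Start 1 of *Mef2c* (chr13:83503784-83504033, plus strand) and the single start of *Nr2f2* (chr7:70366747-70366996, minus strand) had no base inside a peak of either library. Start 3 of *Mef2c* (chr13:83573357-83573606, plus strand) and start 1 of *Prox1* (chr1:190170828-190171077, minus strand) lay partly inside, with 129 and 108 of their 250 bases in peaks of both libraries.
Mef2a: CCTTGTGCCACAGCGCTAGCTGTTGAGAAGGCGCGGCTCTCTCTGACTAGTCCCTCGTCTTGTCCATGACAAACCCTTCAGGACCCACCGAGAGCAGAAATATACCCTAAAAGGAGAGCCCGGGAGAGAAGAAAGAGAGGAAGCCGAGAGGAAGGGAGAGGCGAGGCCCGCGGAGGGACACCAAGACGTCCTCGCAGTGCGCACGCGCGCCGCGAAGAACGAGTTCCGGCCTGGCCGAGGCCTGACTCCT
Mef2d: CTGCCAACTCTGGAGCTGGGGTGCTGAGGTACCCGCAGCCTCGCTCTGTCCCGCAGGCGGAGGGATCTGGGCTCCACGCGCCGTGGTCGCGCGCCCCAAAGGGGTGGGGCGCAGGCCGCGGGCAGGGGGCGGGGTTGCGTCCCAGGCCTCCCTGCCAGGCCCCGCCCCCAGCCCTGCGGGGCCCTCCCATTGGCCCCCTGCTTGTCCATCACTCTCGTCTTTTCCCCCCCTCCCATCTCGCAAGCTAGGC
Mef2c start 1: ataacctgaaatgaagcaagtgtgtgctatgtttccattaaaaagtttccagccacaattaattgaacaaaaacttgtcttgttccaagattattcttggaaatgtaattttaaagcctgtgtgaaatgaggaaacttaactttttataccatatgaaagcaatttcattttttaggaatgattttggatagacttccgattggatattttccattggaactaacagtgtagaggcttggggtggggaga
Mef2c start 3: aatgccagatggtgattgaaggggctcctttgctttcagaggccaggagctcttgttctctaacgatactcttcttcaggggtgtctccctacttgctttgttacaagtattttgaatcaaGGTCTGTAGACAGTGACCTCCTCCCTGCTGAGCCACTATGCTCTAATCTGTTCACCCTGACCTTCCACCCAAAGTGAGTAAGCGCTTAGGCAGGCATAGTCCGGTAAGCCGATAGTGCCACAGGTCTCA
Nr2f2: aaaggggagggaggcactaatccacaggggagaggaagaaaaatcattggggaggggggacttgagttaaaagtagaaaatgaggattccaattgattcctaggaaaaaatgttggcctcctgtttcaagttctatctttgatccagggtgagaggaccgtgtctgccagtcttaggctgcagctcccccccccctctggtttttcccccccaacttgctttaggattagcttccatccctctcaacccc
Prox1 start 1: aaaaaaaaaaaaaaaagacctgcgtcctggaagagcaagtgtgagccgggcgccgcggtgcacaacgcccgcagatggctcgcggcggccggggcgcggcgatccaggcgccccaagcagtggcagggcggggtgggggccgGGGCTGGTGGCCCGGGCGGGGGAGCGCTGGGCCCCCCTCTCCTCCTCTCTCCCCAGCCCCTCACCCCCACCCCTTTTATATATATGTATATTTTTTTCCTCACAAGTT

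These windows differed in base composition. G and C made up 73.2% of the *Mef2d* window, 64.8% of that of *Prox1* start 1 and 61.6% of that of *Mef2a*, 49.6% of that of *Mef2c* start 3, 50% of that of *Nr2f2* and 33.6% of that of *Mef2c* start 1, beside a median of 52.4% over all 32851 starts in the table. Composition and overlap with peaks of both libraries did not go together in every window. *Mef2c* start 3 was partly inside such peaks at 49.6%. Start 1 of *Nr2f1*, not printed, had 0 bases inside them at 72%, but 155 of its 250 bases lay inside a replicate 3 peak. The nearest replicate 2 peak was 263 bp from that start, beyond the 250 bases of the window. None of the 12 windows held any of the fixed binding motifs searched, on either strand. No PROX1 motif was among them. The motifs searched were 4 fixed forms of the A/T-centred MEF2 consensus, TGACAG for MEIS, a direct repeat of AGGTCA with 1 base between for COUP-TF, CAGGTG for E proteins, AGATAA for GATA factors and ACAGGAAG for ETS factors. The 4 MEF2 forms are 2 pairs of reverse complements, so that each pair matches the same windows. Over all 32851 windows, 0.244% held one of the MEF2 motifs, 15.9% the MEIS motif, 0.0335% the COUP-TF motif, 17.2% the E protein motif, 9.99% the GATA motif and 2.90% the ETS motif. The absence of a match says only that these letters are not in these windows.

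Across the 9 genes, 197 separate regions carried a peak in at least 1 library. Both libraries had a peak in 64 of them, of which 7 were at a gene end and 57 were distal, and 51 lay in a gene body against 13 in a flank. Distal refers to the outer gene ends only. Some of the 57, at *Mef2a*, *Mef2c* and *Meis2*, lay within 1 kb of a RefSeq start inside the body. Replicate 3 alone had a peak in 131 regions. Replicate 2 alone had a peak in 2, both in bodies, at *Mef2c* (chr13:83575507-83575656) and *Tcf4* (chr18:69345774-69345923). Of the 72 replicate 2 peaks in the windows, 70 overlapped a replicate 3 peak (97.2%, 95% Wilson interval 90.4% to 99.2%), beside 99.2% of all replicate 2 peaks. Of the 195 replicate 3 peaks, 66 of them at *Tcf4*, 64 overlapped a replicate 2 peak (32.8%, 95% Wilson interval 26.6% to 39.7%). The share over all replicate 3 peaks, 37.7%, lay inside that interval. These intervals cover the counting of peaks only.

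**Figure D1:**
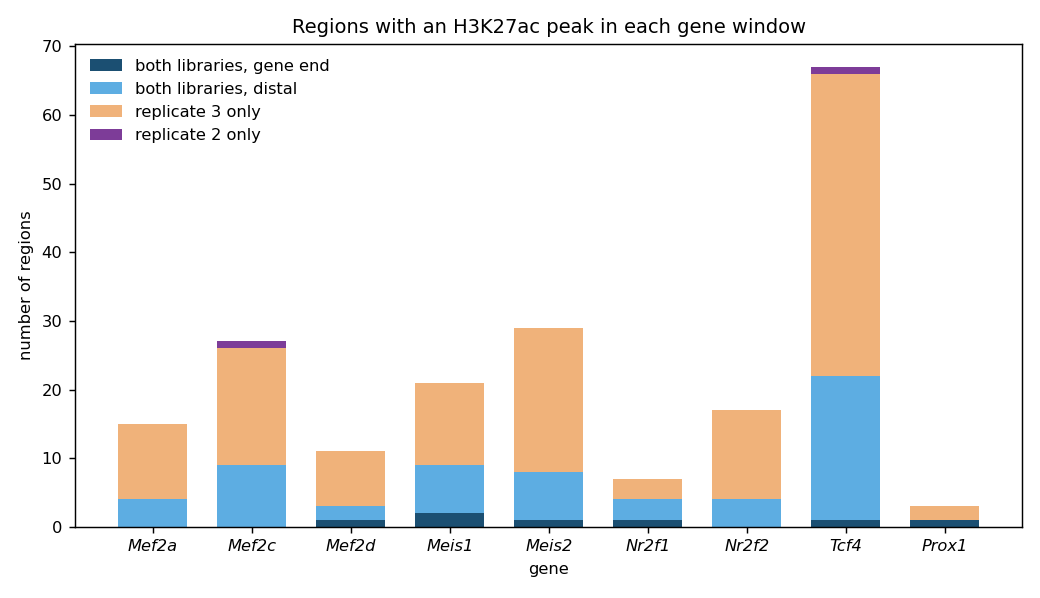
Number of regions with an H3K27ac peak in the window of each gene (body plus 10 kb each side), stacked by whether both libraries or 1 library had a peak there and, for shared regions, by gene end or distal position. *Tcf4* held the most, with 67 regions of which 22 were shared, and *Prox1* the fewest, with 3 regions of which 1 was shared.

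The shared regions were mostly higher in replicate 3. Their median fold enrichment was 9.14 in replicate 2 and 19.7 in replicate 3, somewhat below the medians of 10.5 and 27.03 over all 24199 shared regions of the genome. Replicate 3 was the higher library in 60 of the 64 regions (93.8%), beside 97.1% genome-wide. The 4 exceptions were 3 regions in *Tcf4* and 1 in *Mef2c*, and the widest gap of these was at chr18:69393505-69394291 in *Tcf4*, with 6.76 in replicate 2 and 2.89 in replicate 3. The order of the regions by height was similar in both libraries, with a Spearman rho of 0.785 over the 64 regions and 0.843 over all shared regions, given as a description, since both libraries share the genome's mappability and the same antibody. Regions seen in replicate 3 alone were lower, with a median of 5.54 and a range of 3.11 to 18.2.

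**Figure D2:**
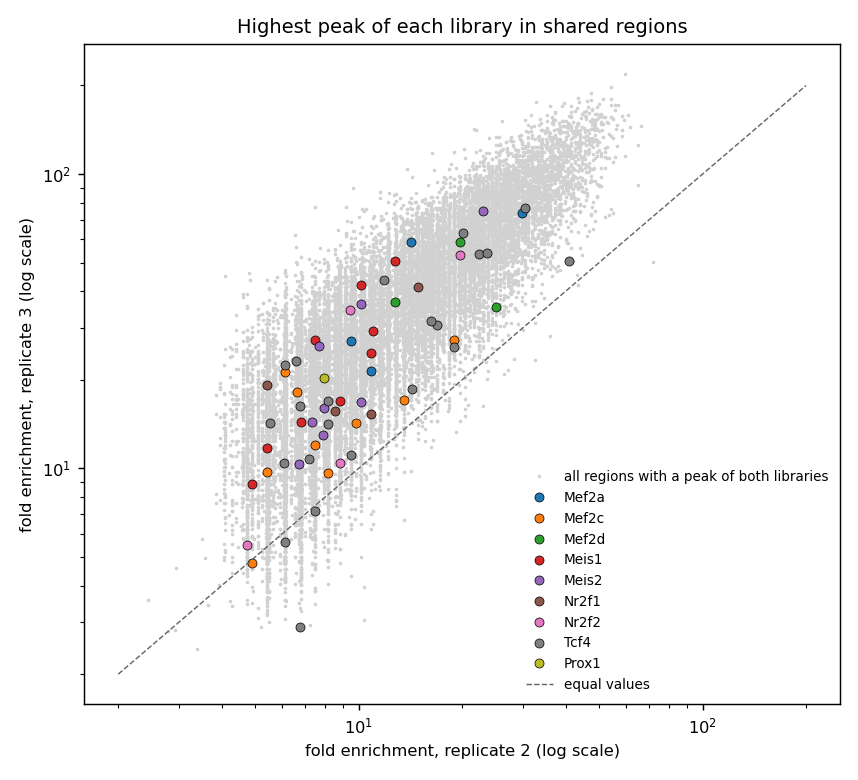
Fold enrichment of the highest peak of each library in every region shared by both (log scales), with replicate 2 on the x axis, replicate 3 on the y axis, grey points for all 24199 shared regions and coloured points for the 64 regions at the 9 genes. Of the coloured points, 60 lie above the line of equal values and 4 lie below it.

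Gene-end peaks of both libraries were present at 6 of the 9 genes, *Mef2d*, *Meis1*, *Meis2*, *Nr2f1*, *Tcf4* and *Prox1*, where 43.4% of all protein-coding genes had one. Replicate 3 alone added *Nr2f2* to make 7 of 9 (53.9% of all genes), with a low peak of 3.91 at its 3′ end (chr7:70351081-70351349). *Mef2a* and *Mef2c* had no peak of either library within 1 kb of an outer end. Each had a shared peak at a RefSeq start inside the annotated body instead. Judged at RefSeq starts, 6 of the 8 genes in that table were marked in both libraries within 1 kb (45.6% of the 17491 genes with an entry), and these were *Mef2a*, *Mef2c*, *Mef2d*, *Meis1*, *Nr2f1* and *Prox1*. Of the 12 individual start bases, 7 lay inside a replicate 3 peak (58.3%, beside 36.3% of all starts) and 5 inside a replicate 2 peak (41.7%, beside 27.4%). Several starts of 1 gene share their neighbourhood and are not separate observations.

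Distal regions shared by both libraries were found at 8 of the 9 genes, beside 39.3% of all genes, and 7 genes had 3 or more, beside 8.76% of all genes. These counts include the regions near a RefSeq start inside the body. Length bears on this count, because a long gene offers a wide window. The 6 genes of at least 50 kb among the 9 were *Mef2a*, *Mef2c*, *Meis1*, *Meis2*, *Tcf4* and *Prox1*, and of the 4944 protein-coding genes of that length 53.1% had a shared distal region and 21.5% had 3 or more. The median number of shared distal regions was 4 over the 9 genes and 0 over all genes. *Tcf4* alone held 34.4% of the 64 shared regions, and without it 42 shared regions remained, of which 36 were distal. Only 1 shared region lay within 1 kb of an end of another protein-coding gene (*Lysmd4*, beside *Mef2a*), and 6 of the 57 distal ones lay that close to an end of any other annotated gene.

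**Figure D3:**
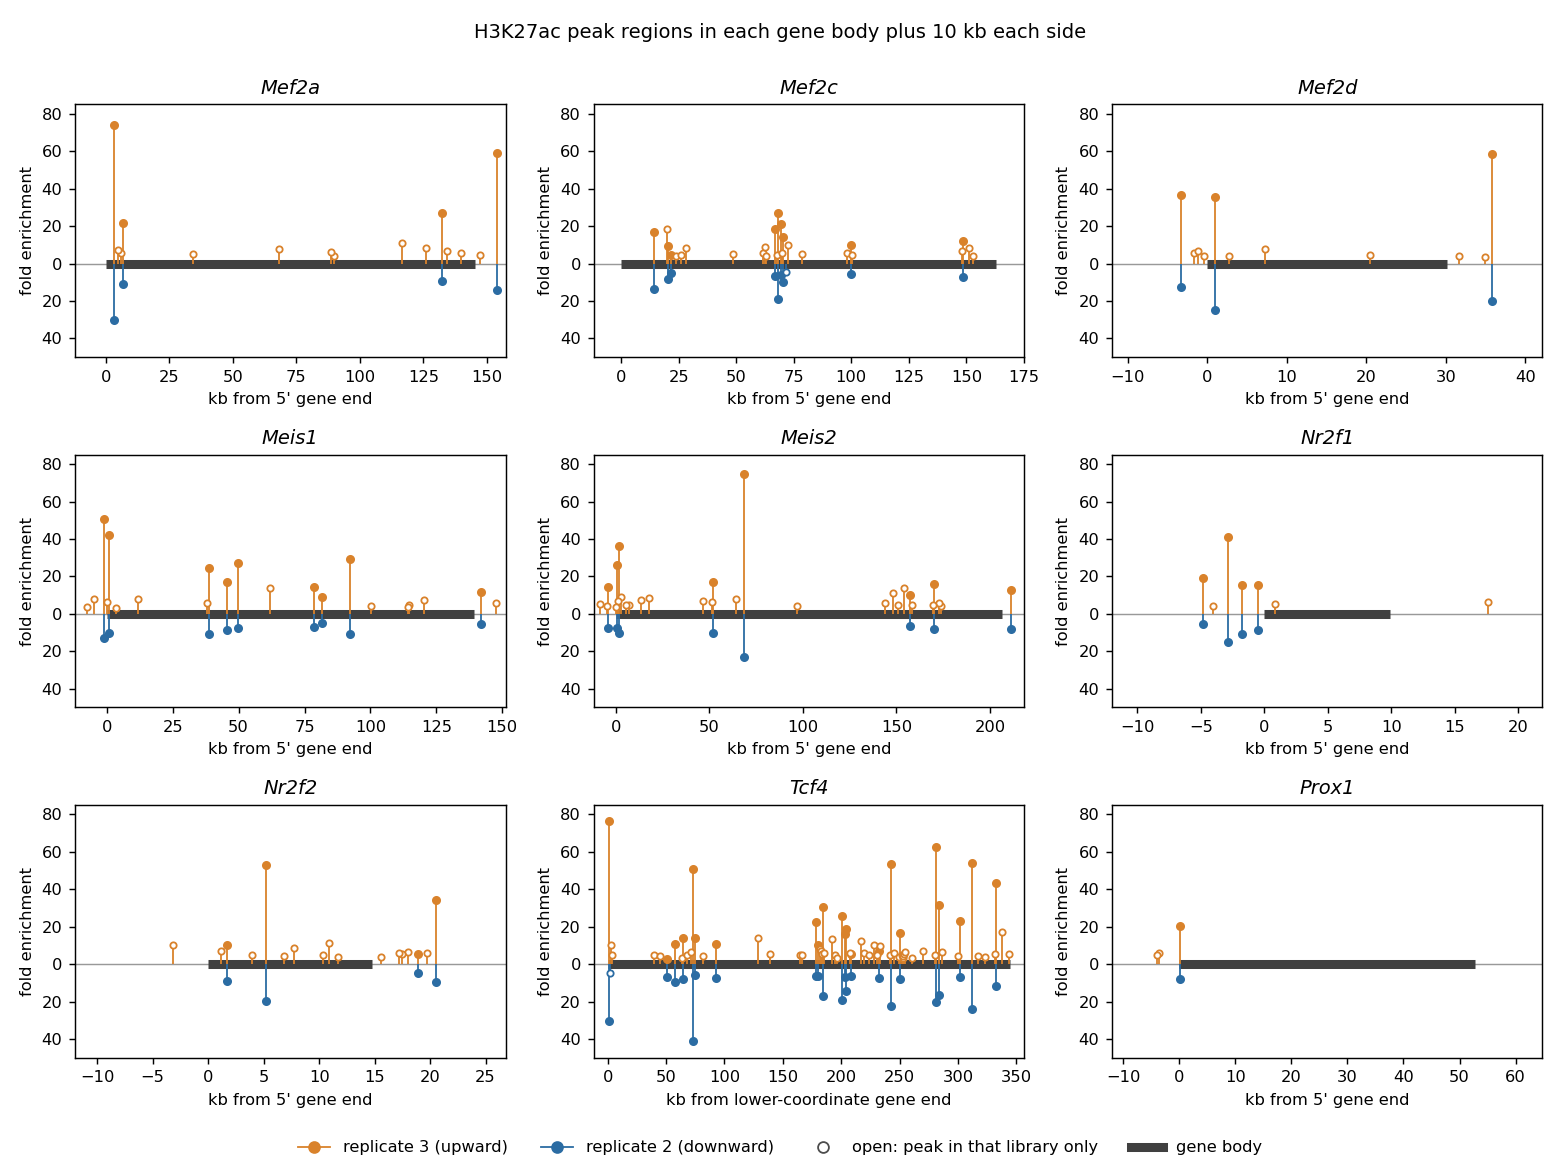
Position and fold enrichment of each region with a peak along the 9 gene windows, in kb from the 5′ gene end (from the lower-coordinate end for *Tcf4*), with replicate 3 drawn upward, replicate 2 downward, open points for a peak in 1 library only and a dark bar for the gene body. Shared peaks lie in groups along the *Tcf4* body, with wide stretches between them, and upstream of *Nr2f1*, whereas the *Prox1* body holds 1 region, at its 5′ end.

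*Mef2a* encodes one of the widely expressed MEF2 factors and spans 145.294 kb on chromosome 7 (67231163 to 67376456, minus strand). Its window held 4 replicate 2 peaks and 15 replicate 3 peaks, and all 4 of the former were shared. The highest region covered the RefSeq start whose sequence is printed above (chr7:67372024-67374369), reaching 29.9-fold in replicate 2 and 73.9-fold in replicate 3, which put it at the 94.5th and 96.4th percentile of all peaks of those libraries. It lay 2087 bp inside the outer gene end and was therefore counted as distal. A second high region lay beyond the 3′ end (chr7:67222070-67222862, 14.2 and 58.9), within 1 kb of ends of *Lysmd4* and the noncoding gene 1700112J16Rik, so it cannot be assigned to *Mef2a* alone. The other 2 shared regions were in the body, one close to the start (chr7:67369609-67369911, 10.8 and 21.5) and one centred 132.433 kb from the 5′ end (chr7:67243751-67244295, 9.49 and 27.03). The longest stretch of the body without a peak of either library was 33.7 kb.

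*Mef2c*, the MEF2 gene needed for heart and vessel development, spans 163.063 kb on chromosome 13 (83504017 to 83667079, plus strand), and its outermost start was bare. The nearest peak to start 1 was 14277 bp away in replicate 2 and 14034 bp in replicate 3. Start 2, at base 83523656, lay inside a peak of replicate 3 alone (18.2, the highest of all regions seen only in that library at the 9 genes), and the nearest replicate 2 peak was 726 bp away at 8.13. Start 3, at base 83573607, lay inside peaks of both libraries, with 6.10 in replicate 2 and 21.2 in replicate 3. All 9 shared regions of *Mef2c* were in the body, and 4 of them clustered around start 3, within 2261 bp of it. The highest of these was chr13:83571804-83572702, with 19.0 in replicate 2 and 27.2 in replicate 3, 905 bp from the start. Another stood 4989 bp from the nearest start (chr13:83518068-83518667, 13.6 and 17.1), between starts 1 and 2. The median fold enrichment over the 9 regions was 7.46 in replicate 2 and 14.2 in replicate 3, the lowest of the 9 genes in each library, and 1 region (chr13:83525537-83526062) was level between them at 4.88 and 4.78.

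*Mef2d*, the shortest of the MEF2 members, spans 30.151 kb on chromosome 3 (88141941 to 88172091, plus strand), and its promoter had the broad, high peak that *Mef2c* start 1 lacked. The gene-end region (chr3:88141910-88143837) was 1928 bp wide, with 25.1 in replicate 2 and 35.3 in replicate 3, and it held the whole of the printed window. Both distal shared regions were outside the body, 1 upstream and 3014 bp from the start (chr3:88137976-88139358, 12.7 and 36.7) and 1 beyond the 3′ end (chr3:88177096-88178516, 19.8 and 58.7). The latter lay within 1 kb of an end of 1700113A16Rik. Inside the body beyond the start there were replicate 3 peaks alone. Peaks of both libraries covered 6.84% of the bases of the window, which ranked *Mef2d* at the 98.1st percentile of all protein-coding genes, the highest of the 9.

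*Meis1*, a homeobox gene of blood stem cells and vessels, spans 139.224 kb on chromosome 11 (18880428 to 19019651, minus strand) and was marked on both sides of its start. The region over the RefSeq start (chr11:19018612-19019198) reached 10.2 in replicate 2 and 42.0 in replicate 3. A second lay just upstream of the gene end (chr11:19020274-19020895), with 12.8 and 50.5, at the 63.2nd and 91.6th percentile of the libraries' peaks. Between them replicate 3 alone had a low peak of 6.51. The 7 distal shared regions had replicate 2 values from 4.88 to 11.0 and replicate 3 values from 8.85 to 29.3. The highest was in the body, 91222 bp from the start (chr11:18927384-18927747). The one shared region beyond the 3′ end was near the noncoding gene 8430419K02Rik.

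*Meis2*, the second MEIS gene, spans 206.274 kb on chromosome 2 (115861264 to 116067537, minus strand), and its highest region was far from the promoter. That region, chr2:115998633-115999637, stood 64982 bp from the RefSeq start inside the body, with 22.9 in replicate 2 and 74.9 in replicate 3 (the 87.5th and 96.5th percentile of peaks). The gene-end region was lower, at 7.66 and 26.0 (chr2:116066939-116067491), and lay within 1 kb of an end of the noncoding gene G630016G05Rik, as did a distal region beside it (chr2:116065535-116066299, 10.2 and 36.3). The RefSeq start of *Meis2*, at base 116064619, lay 2320 bp from the gene-end region. It was inside a replicate 3 peak of 8.79 and 1073 bp from the nearest replicate 2 peak. The remaining 5 shared regions ran from 6.71 to 10.2 in replicate 2 and from 10.3 to 16.8 in replicate 3, and 21 further regions were seen in replicate 3 alone.

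*Nr2f1*, encoding COUP-TFI, is the shortest of the 9 genes at 9.903 kb on chromosome 13 (78188971 to 78198873, minus strand), and every shared region lay upstream of it. Their distances from the RefSeq start were 96, 1438, 2441 and 4274 bp. The nearest (chr13:78198969-78199705) had 8.54 in replicate 2 and 15.6 in replicate 3, and the next had 10.8 and 15.3. The third was the highest (chr13:78201314-78202136), with 14.9 and 41.3, and the farthest had 5.42 and 19.2. The first of the 4 lay within 1 kb of an end of the noncoding gene A830082K12Rik. The body had no shared region and 1 low replicate 3 peak of 5.54, and 8.81 kb of it was free of peaks. The window held 1.34 shared regions per 10 kb, the 98.2nd percentile of all genes, where the median gene had 0.159.

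*Nr2f2*, encoding the venous factor COUP-TFII, spans 14.801 kb on chromosome 7 (70351946 to 70366746, minus strand) and, like *Nr2f1*, had no peak over the start base itself. The nearest peak was 1027 bp away in replicate 3, at 6.84, and 1583 bp away in replicate 2, at 8.81, where those nearest *Nr2f1* start 1 were 96 and 263 bp away. The highest region was in the body, 4447 bp from the start (chr7:70360814-70362299), with 19.7 in replicate 2 and 53.1 in replicate 3 and a width of 1486 bp. A second lay in the 3′ flank (chr7:70345866-70346602) at 9.47 and 34.5. Both other shared regions were lower, at 8.81 and 10.4 near an end of the noncoding gene B130024G19Rik (chr7:70364873-70365293) and at 4.74 and 5.49 (chr7:70347633-70348103). A further 13 regions were seen in replicate 3 alone, with 2 of them above 10, at 11.3 in the body and 10.5 upstream. Peaks of both libraries covered 3.90% of the window (91.7th percentile), and 5.05% in *Nr2f1* (95.5th percentile).

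*Tcf4* is the longest of the 9 genes, 344.539 kb on chromosome 18 (69343429 to 69687967), and it held the most peaks, 26 in replicate 2 and 66 in replicate 3. All 22 shared regions were in the body. The gene-end region lay 610 bp inside the lower-coordinate end (chr18:69344039-69344759) and was the highest of all 64 in replicate 3, with 30.5 in replicate 2 and 76.5 in replicate 3. The highest of all 64 in replicate 2 was a 2842 bp region, chr18:69414725-69417566, with 40.9 in replicate 2, the 98.7th percentile of its peaks, and 50.8 in replicate 3. Another 4 regions passed 40 in replicate 3 only. Their values were 22.4 and 53.4 at chr18:69585216-69587038, 20.1 and 62.8 at chr18:69624187-69624949, 23.7 and 54.1 at chr18:69655206-69656133, and 11.9 and 43.6 at chr18:69675590-69676562. The third of these lay near an end of the gene *Gm31439*. Length alone gives a large window, so the count was also read per length. *Tcf4* had 0.604 shared regions per 10 kb, the 96.1st percentile among genes of at least 50 kb, and 2.78% of its window was covered by peaks of both libraries, the 97.0th percentile among them. Only 6 protein-coding genes, *Tcf4* included, had 21 or more shared distal regions.

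*Prox1* spans 52.793 kb on chromosome 1 (190118035 to 190170827, minus strand) and was the sparsest of the 9 genes. Its promoter carried the single shared region (chr1:190170162-190171098), with 7.93 in replicate 2 and 20.2 in replicate 3, the 35.7th and 75.2nd percentile of the libraries' peaks. RefSeq start 1 was inside it and start 2 was 647 bp from it in replicate 3. The noncoding gene *Prox1os* has an end within 1 kb of the same region, and the lists carry no strand. Beyond this region, 52.1 kb of the body had no peak of either library, and both remaining regions were replicate 3 peaks upstream of the gene. Of the 2354 long genes with a gene-end peak of both libraries, 772 (32.8%) had no shared distal region, as here. Among 5 markers of lymphatic endothelium, *Prox1*, *Flt4* and *Lyve1* had a gene-end peak of both libraries, *Flt4* and *Lyve1* being LSEC markers too, while *Pdpn* and *Ccl21a* had none in either library. Of 10 hepatocyte markers, 2 had one, and *Apoa1* and *Apob* had a replicate 3 gene-end peak alone, each at 11.4. *Alb*, *Ttr*, *Serpina1a*, *Cyp3a11*, *Cps1* and *Hnf4a* had no gene-end peak in either library. Of these, *Alb* had 1 and *Hnf4a* had 2 shared distal regions. The part of hepatocytes in the *Prox1* peaks was not tested.

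**Figure D4:**
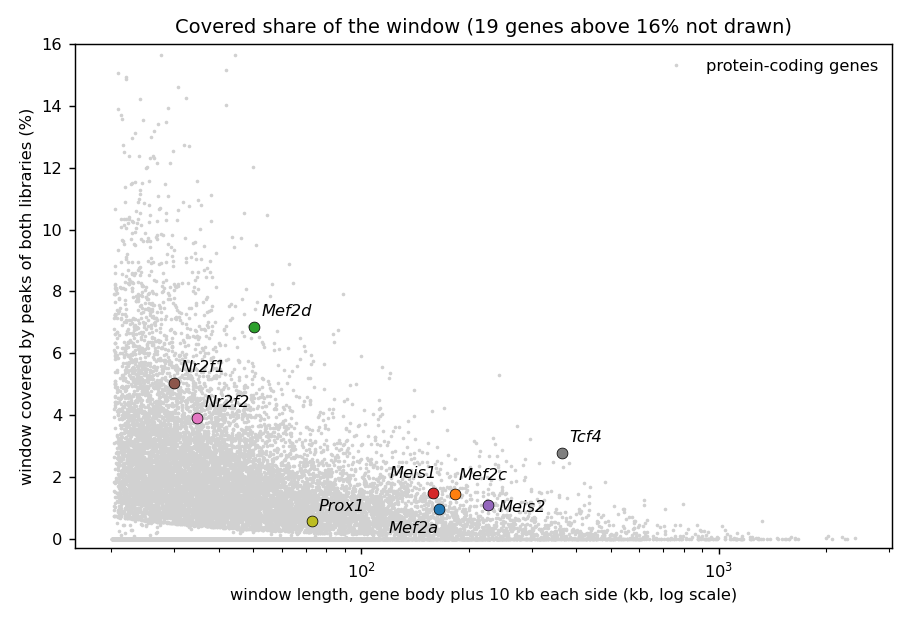
Share of each gene window (body plus 10 kb each side) inside peaks of both libraries, in %, against the window length in kb on a log scale, for all protein-coding genes (grey) and the 9 genes (coloured). *Mef2d* stands at 6.84% and *Nr2f1* at 5.05%, *Tcf4* is at 2.78% for a long window, and *Prox1* is near the median of all genes at 0.563%.

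Put in order by the share of the window inside peaks of both libraries, the 9 genes ran *Mef2d* (6.84%), *Nr2f1* (5.05%), *Nr2f2* (3.90%), *Tcf4* (2.78%), *Meis1* (1.50%), *Mef2c* (1.44%), *Meis2* (1.10%), *Mef2a* (0.954%) and *Prox1* (0.563%). The median of the 9 was 1.50% and that of all protein-coding genes 0.577%. This share falls with window length, and among the genes of at least 50 kb, whose median was 0.433%, the 6 long members stood at the 97.0th (*Tcf4*), 86.0th (*Meis1*), 84.9th (*Mef2c*), 77.2nd (*Meis2*), 72.9th (*Mef2a*) and 56.3rd (*Prox1*) percentile. Each share is 1 value from both libraries together, so no error can be set on the gaps between neighbours such as *Meis1* and *Mef2c*.

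The other genes of these pathways were read from lists of named genes, of which 36 of 48 had a gene-end peak of both libraries (43.4% of all protein-coding genes). Among 8 paralogs outside the 9 genes, 5 had one. The highest were at *Pknox1*, a TALE homeobox gene (38.6 in replicate 2 and 146 in replicate 3), *Nr2f6*, an orphan receptor of the COUP-TF group (11.5 and 44.3), and *Prox2* (12.2 and 32.5). At *Prox2*, however, no peak of both libraries lay within 1 kb of a RefSeq start. *Tcf3* and *Tcf12*, the other E protein genes, had one too. *Mef2b* and *Pknox2* had replicate 3 gene-end peaks alone, and *Meis3* had none.

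Of 11 MEF2 regulators, 7 had a gene-end peak of both libraries. The highest were at *Map3k3*, which encodes the kinase MEKK3 upstream of ERK5 (38.0 and 128), *Mrtfa*, a cofactor of the related MADS-box protein SRF (26.6 and 92.9), and *Sik1*, a kinase that phosphorylates class IIa deacetylases (21.7 and 74.6). *Mapk7*, which encodes ERK5 itself, had 33.9 and 69.8. The genes without a gene-end peak were the deacetylases *Hdac4*, *Hdac7* and *Hdac9* and the ERK5 kinase *Map2k5*. Of these, *Hdac4*, *Hdac7* and *Map2k5* were marked in both libraries at a RefSeq start. *Hdac7*, the class IIa deacetylase best known in endothelium, had 8 shared distal regions and 4.47% of its window covered.

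All 4 MEIS partners on the list had gene-end peaks of both libraries, with values of 20.3 and 81.1 at *Pbx3* and of 8.54 and 18.2 at *Pbx2*. All 4 E protein inhibitors had one as well, led by *Id2* (22.9 and 81.5), *Id4* (34.6 and 63.9) and *Id3* (15.6 and 60.9). Of 7 partners of COUP-TF and PROX1, 5 had one, with *Hdac3* (14.0 and 54.0) and *Ncor1* (11.5 and 37.4), parts of a nuclear corepressor complex, at the top. The liver nuclear receptor genes *Nr5a2* and *Hnf4a* had no gene-end peak. Of 14 vascular targets, 11 had one, and the highest were the flow-responsive *Klf2* (44.7 and 113) and *Klf4* (31.7 and 82.7) and the Notch target *Hey1* (17.9 and 61.5). *Nrp1* and *Dll4* had replicate 3 gene-end peaks alone, and *Pdpn* had no peak anywhere in its window. No list was tested as a set, and the counts are descriptions.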

How the data were processed

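H3K27ac ChIP-Seq of isolated mouse LSECs gave 2 peak lists, 1 per library, called by the authors on each library and not on pooled libraries. Each deposited list has 10 columns with coordinates and, as deposited, the fold enrichment (a ratio), the −log10 of the p-value and of the q-value, a score and the summit position. The smallest −log10 q-value deposited was 2.04 in replicate 2 and 2.01 in replicate 3. The submitters' processing notes name cutadapt 0.4.4, BWA 0.7.17, Picard 1.67, MACS2 2.0.10, bedtools 2.27.1 and the build mm10, with no role or order, and whether the inputs served as background was not stated. The labels describe sonication and a ligation kit, while the methods describe tagmentation. Library depth is unknown, and every count of peaks may depend on it.

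From the files, peaks were overlapped (at least 1 bp) and peaks of either library that touched were joined into regions, in Python 3.11.15 with numpy 2.4.6, pandas 2.3.3 and scipy 1.17.1 (figures with matplotlib 3.10.9). A region's value in a library is its highest peak, and its percentile is taken among all peaks of that library. Covered share counts bases inside peaks of both libraries. The gene table gives outer gene ends only, so exons, introns and UTRs were not distinguished. Strand and starts came from the RefSeq promoter table. Wilson intervals (95%) cover the counting of peaks only. The scripts were tested on simulated data.

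All 9 genes are named, with their highest gene-end and distal regions. From each list, up to 3 genes with the highest replicate 3 gene-end value and all genes without a gene-end peak are named, and *Tcf3*, *Tcf12*, *Mapk7* and *Hdac7* are described beyond that rule, chosen after their values were seen. Some genes that the rule would name are not reported here. The genes and lists were chosen with earlier results of these data known. Alternatives covered peak strength, overlap, window, gene end, neighbouring genes, summits, joining and leaving out each library.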

Additional observations from a re-analysis of the deposited data

How the results depend on the processing

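Over 5 results and 44 alternatives, 33 values stayed close to those reported and 11 moved. The limit for a close count was wide. It took in 4 genes with a shared gene-end peak, in place of 6, under 50% reciprocal overlap. It also took in 45 shared distal regions, in place of 57, with equal numbers of strongest peaks. With the same number of strongest peaks taken from each library, the share of replicate 3 peaks at the 9 genes that replicate 2 shared was 85.2% and the converse share 80.6%. Under a rule of 50% reciprocal overlap, the shared distal regions fell to 28, the shares to 16.4% of replicate 3 and 44.4% of replicate 2 peaks, and the genes with a shared gene-end peak to 4, without *Mef2d* and *Prox1*. The median percentile of the 9 genes by covered share, 69.2 as reported, was 77.9 with that overlap and 73.9 over gene bodies alone. It was 81.7 without peaks near an end of another protein-coding gene. Among genes of at least 50 kb, which hold only 6 of the 9, the median of those 6 was 81.1. That comparison was chosen after seeing the data. Leaving out 1 library, and so counting the peaks of the other, gave 6 to 7 genes with a gene-end peak, 65 to 181 distal regions and a median percentile of 69.6 to 74.8, and the upper values in each case came without replicate 2. A gene-end window of 2.5 kb added *Nr2f2*, and requiring the summit in the window removed *Tcf4*. Counting RefSeq starts, also chosen after seeing the data, gave 6 of the 8 genes with an entry. *Mef2a* and *Mef2c* were added and *Meis2* was lost, while *Tcf4* has no entry and could not be judged. No paired analysis was possible because the study has 1 condition and no contrast between groups. Without read counts, a region seen in replicate 3 alone cannot be read as absent from replicate 2.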
